A study of Mus musculus with 6 samples.

Results

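Cytosolic ribosomal protein genes encode the proteins that, together with ribosomal RNA, build the ribosomes of the cytoplasm. Members were chosen by gene symbol, as Rpl or Rps followed by a number, with Rplp0, Rplp1, Rplp2 and Rpsa added and the ribosomal S6 kinases left out. The rule found 85 of the 17369 genes in the table: 46 of the large subunit, 31 of the small subunit and 8 paralogues or related symbols (Rpl3l, Rpl7l1, Rpl22l1, Rpl36al, Rpl39l, Rps27l, Rps27rt and Rps19bp1).

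Naive CD4+ T cells of mouse spleen spent 48 h in culture with 3 ng/ml hTGFβ, 20 ng/ml of IL-4 and 20 µg/ml of a blocking antibody to IFNγ, and CD4+ cells were then purified. These conditions drive T helper 9 (Th9) cells, which make the cytokine IL-9. There were 3 libraries of cells from Cblb-/- mice, called D, E and F here, and 3 of wild-type (WT) cells, called A, B and C, and all received the same culture. Cblb encodes a ubiquitin ligase that restrains T cell activation, and the labels do not state the strain, the age or the cells in which the gene is lost. The series text counts 3 mice of each genotype but ties no library to a mouse, so a p-value here reflects the spread among these libraries, part of which may be technical.

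Single cells were sequenced with a droplet kit of 10x Genomics that tags transcripts near their 3' end with a molecular barcode, so that each molecule (UMI) is counted once. The table held 14503 Cblb-/- cells and 12755 WT cells, with a median raw depth per cell of 35573 to 39628 UMIs in Cblb-/- libraries and 37550.5 to 38753 UMIs in WT libraries. In all, 152 cells (0.558%) shared a cell barcode with a cell of another library. Cblb itself stood at 15.0 to 18.4 ppm in Cblb-/- libraries and at 30.9 to 32.6 ppm in WT libraries, a fall that was called (log2 difference -0.85, limma adjusted p = 0.000816). Which part of Cblb is deleted is not given, so the counted 3' ends may lie outside it. CD4 T cell markers summed to 2797 to 2942 ppm in Cblb-/- libraries and to 2911 to 2978 ppm in WT libraries. Of these 10 markers 1 was called higher and 3 lower, against 11.0% and 13.4% of all genes. Cd4 was lower in Cblb-/- libraries (76.4 to 85.3 against 90.5 to 94.3 ppm) and Cd5 higher (130 to 171 against 111 to 127 ppm). Il9 stood at 461 to 915 ppm in Cblb-/- and 166 to 271 ppm in WT libraries. Here and below ppm is the share of a gene in a library's summed corrected counts, times 1000000. A gene was called at an adjusted p under 0.05.

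A ribosome carries each of its proteins in fixed proportion, and cells adjust the whole set together. In mammals this is done largely at translation: ribosomal protein mRNAs start with a run of pyrimidines, the 5' terminal oligopyrimidine tract, through which the kinase mTORC1 and the RNA-binding protein Larp1 set how well they are translated. T cells that leave rest after antigen contact make many new ribosomes before they divide. Proteins that are made in excess are degraded, and free Rpl5 and Rpl11 can bind Mdm2 and so stabilise p53.

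The start-site regions of the 5 members called between the genotypes are shown, since the run of pyrimidines at the start is the feature by which the family is translated as a set. Each is 40 bases long, 20 before the RefSeq transcript start and 20 from it on (GRCm38.p6), and capitals mark its longest run of C and T. The places are chr16:33056462-33056501 (plus strand) for Rpl35a, chr17:33955646-33955685 (minus) for Rps18, chr16:55966255-55966294 (plus) for Rpl24, chr5:115559447-115559486 (plus) for Rplp0 and chr17:46782637-46782676 (minus) for Rpl7l1.
Rpl35a: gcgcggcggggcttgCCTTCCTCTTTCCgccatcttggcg
Rpl7l1: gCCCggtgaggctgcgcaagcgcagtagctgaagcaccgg
Rps18: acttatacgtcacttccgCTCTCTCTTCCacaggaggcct
Rpl24: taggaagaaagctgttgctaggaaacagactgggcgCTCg
Rplp0: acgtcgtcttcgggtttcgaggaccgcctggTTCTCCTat

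At the starts shown, Rpl35a and Rps18 had runs of 13 and 11 pyrimidines that span or abut the start. Rplp0 had a run of 7 that lies downstream of the start and does not touch it. Rpl24 and Rpl7l1 had no run longer than 3 in the window. RefSeq lists 3 starts for Rpl35a, and the one shown has the longest run; at the other two the longest runs were 5 and 4 pyrimidines. Promoters were found for 65 of the 85 members. A run of at least 8 pyrimidines in this window, at any listed start, was present in 30 of them (46.2%), against 18.4% of all 27025 genes with a promoter. On either strand of the 300 bases around the start, the ETS factor core CCGGAAG was found in 40.0% of members and 9.93% of all such genes. For AAGATGG, a YY1 site, the shares were 15.4% and 7.28%. The SP1 box GGGCGG was found in 61.5% and 38.2%, and TATAAA in 10.8% and 15.7%. These are matches of letters only, and the annotated start can miss the start used in these cells.

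Ribosomal protein genes held 32.6%, 34.8% and 32.3% in Cblb-/- libraries D, E and F, against 31.5%, 32.6% and 31.7% in WT libraries A, B and C. The groups overlapped, with the WT library B above Cblb-/- library F, and library E stood above the other 5. The means were 33.3% ± 1.35 in Cblb-/- and 31.9% ± 0.596 in WT libraries (SD, n = 3 each), a difference of 1.31 percentage points that fell to 0.54 without library E. Library E also had the lowest median raw depth. Within every library the share fell with a cell's raw UMI count (Spearman -0.22 to -0.32 across cells, a description). The cells of each library were also split by depth into 3 equal groups. In E the median share was 35.6% among the cells with the fewest UMIs and 33.9% among those with the most. Among the cells with the fewest UMIs it was 32.5% to 33.6% in the other libraries. The part of depth in the difference between libraries was not tested.

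The subunits kept a near constant proportion. Large subunit genes held 18.3% ± 0.723 in Cblb-/- and 17.5% ± 0.333 in WT libraries, and small subunit genes 14.7% ± 0.610 and 14.1% ± 0.256. The ratio of large to small subunit counts was 1.242 ± 0.00235 in Cblb-/- and 1.240 ± 0.00119 in WT libraries, with overlapping values. Cell by cell the large and small subunit shares moved together, with a Spearman correlation of 0.929 to 0.948 across the cells of a library, a description over shares of the same cell total.

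The first comparison asked which members differed between the genotypes over all cells of a library. Rpl35a, a large subunit protein whose gene is mutated in some human Diamond-Blackfan anaemias, fell by 30.9% in mean ppm, far outside the range of every other member. Rpl7l1 also fell, and Rps18, Rpl24 and Rplp0 rose by 12.7% to 16.2%. The other 78 tested members did not pass, and 82 of the 83 lay within 0.25 of 0 on the log2 scale, as did 82.5% of all genes. Tests used limma on log2(ppm + 1) over the 8475 genes that averaged 5 ppm or more. This filter passed 83 members, and Rpl3l and Rpl39l did not. Of the 83, 3 were called higher and 2 lower, together 6.02%, against a background of 24.4% of all genes called (11.0% higher and 13.4% lower).

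Rpl35a had 2441, 2739 and 2600 ppm in Cblb-/- libraries D, E and F, against 3604, 3910 and 3749 ppm in WT libraries A, B and C. The highest Cblb-/- library was well below the lowest WT library. The log2 difference was -0.53 (SE 0.05, limma adjusted p = 0.00123), the lowest among 233 genes that averaged 500 ppm or more. The lowest of these genes outside the family was nearly level with it, at -0.529 against -0.534 for Rpl35a. Rpl35a was called under all 19 other settings, with differences of -0.59 to -0.49 where the log2(ppm + 1) scale was kept. The annotation holds 9 near-identical copies of the counted end of Rpl35a, none of them a gene of the table, so reads that fit several copies may be missing from its count.

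Rps18, a protein of the head of the small subunit, had 6211, 5823 and 5536 ppm in Cblb-/- libraries, against 5026, 5151 and 4945 ppm in WT libraries. All Cblb-/- values were above all WT values, and the log2 difference was 0.22 (SE 0.05, limma adjusted p = 0.0204). Rpl24 forms a bridge between the subunits, and its mutation in the mouse lowers protein synthesis. It had 3309, 3460 and 3218 ppm in Cblb-/- libraries, against 2947, 2977 and 2912 ppm in WT libraries (log2 difference 0.18, SE 0.04, limma adjusted p = 0.0199). Rplp0 is the base of the stalk that recruits elongation factors. It had 8671, 8779 and 8416 ppm in Cblb-/- libraries, against 7794, 7744 and 7405 ppm in WT libraries (log2 difference 0.17, SE 0.04, limma adjusted p = 0.0225). For both genes the groups were likewise apart. These 3 calls depended on scale and on single libraries. With median-of-ratios scaling none of them was called, and neither was any without library A, B or C; without library D only Rpl24 was. Their lowest differences under another scaling or choice of cells were 0.16 for Rps18, 0.12 for Rpl24 and 0.12 for Rplp0.

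Rpl7l1 encodes a relative of Rpl7 that takes part in assembly of the large subunit. It had 124, 124 and 137 ppm in Cblb-/- libraries, against 147, 145 and 154 ppm in WT libraries, and the groups did not overlap. The log2 difference was -0.21 (SE 0.05, limma adjusted p = 0.023), and it was not called without library D, A, B or C.

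**Figure D1:**
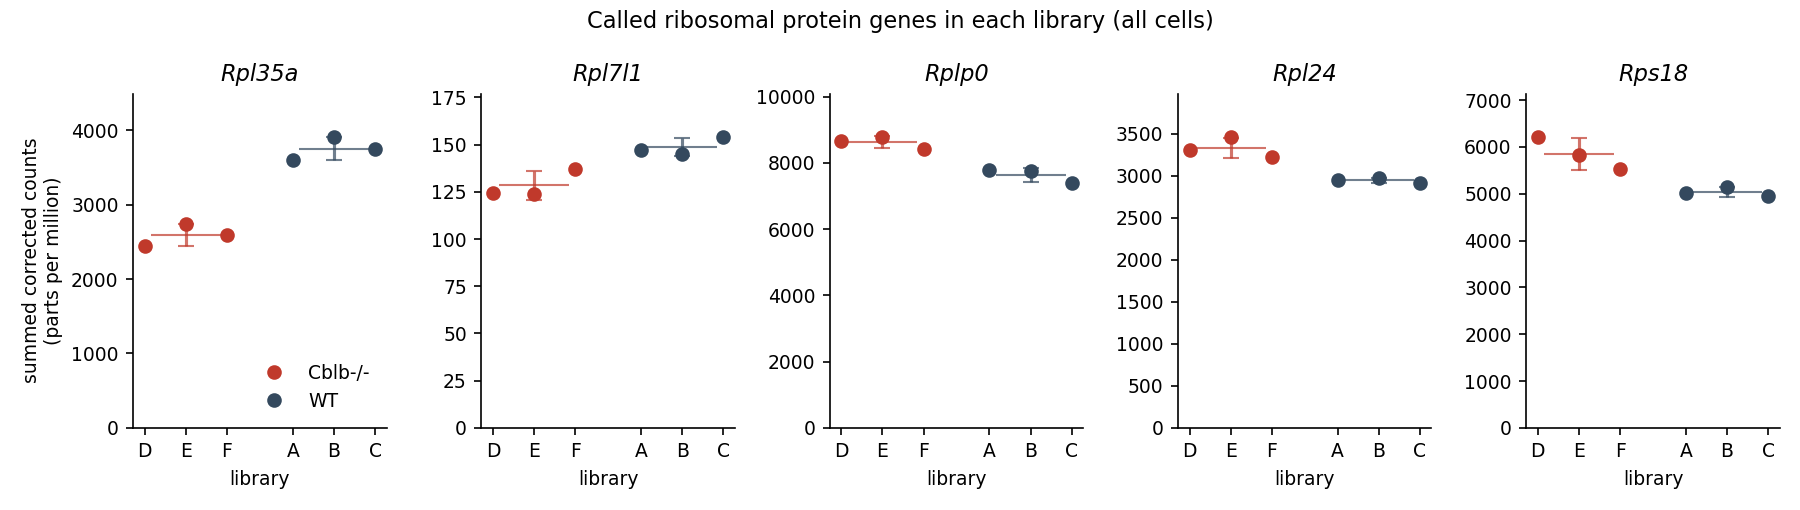
The 5 called members in each library, in ppm of summed corrected counts (y axes start at 0). Points are libraries, bars the mean ± SD of 3; Cblb-/- libraries (red) lie below all WT libraries (blue) for Rpl35a and Rpl7l1 and above them for Rplp0, Rpl24 and Rps18.

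Most remaining members lay slightly above WT. The log2 difference was positive for 62 and negative for 21 of the 83, with a median of 0.05 against -0.01 over all genes. Without library E the median member difference was 0.0216. Cblb-/- values lay entirely above WT values for 20 members (24.1%, background 19.7%) and entirely below for 4 (4.82%, background 25.6%). At an unadjusted p under 0.05 there were 15 of the 83 members, against 39.2% of all genes. When libraries were scaled to their summed ribosomal protein genes, the median member difference was -0.0037, 0 members were called higher (background 5.72%), and Rpl35a, Rpl7l1, Rpl31 and Rpl7a were called lower (background 14.1%).

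In the large subunit, Rpl31 and Rpl7a followed Rpl35a at the low end, with log2 differences of -0.13 (adjusted p = 0.0907) and -0.12 (adjusted p = 0.0544) in limma. Rpl7a had 2189, 2270 and 2236 ppm in Cblb-/- libraries, against 2467, 2384 and 2407 ppm in WT libraries, groups that did not overlap. Rpl27 (-0.08) and Rpl10 (-0.04), a protein that joins the subunit late, completed the low end. At the high end, below Rpl24 and Rplp0, stood Rpl39 (0.16), Rpl3 (0.16), at the peptidyl transferase centre, and Rpl37 (0.15). For Rpl39 and Rpl37 the groups overlapped and library E was highest (limma adjusted p = 0.239 and 0.262), while for Rpl3 the groups were apart. Rpl3 had 4361, 4512 and 4151 ppm in Cblb-/- libraries and 4043, 3992 and 3662 ppm in WT libraries (limma adjusted p = 0.0691).

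In the small subunit Rps2, Rps25, Rps16 and Rps26 were at the low end, with log2 differences of -0.06 to -0.01, and none was called. Rps14 (0.13), Rps15a (0.12), Rps4x (0.12) and Rps10 (0.09) followed Rps18 at the high end. Rps14 had 4336, 4194 and 4027 ppm in Cblb-/- libraries, against 3795, 3854 and 3807 ppm in WT libraries, and just missed the threshold (limma adjusted p = 0.0528).

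Of the members with separately known roles, Rplp0 (above) was the only one called. Rpl5 and Rpl11, the Mdm2-binding partners of 5S ribosomal RNA, had log2 differences of 0.05 and 0.02. Rps6, the substrate of the S6 kinases, had 3070, 2703 and 2631 ppm in Cblb-/- libraries and 2675, 2685 and 2663 ppm in WT libraries, so that only library D stood apart. Rpl22, which is required for normal alpha-beta T cell development in the mouse, had a difference of -0.02, and Rpl38, which in the mouse embryo favours translation of Hox mRNAs, one of 0.07. Rplp1 (0.03) and Rplp2 (0.01) form the stalk on Rplp0, and neither was called. Rpl13a (0.11, adjusted p = 0.0682 in limma) and Rps3 (0.06) lay above WT in all 3 libraries without passing. Of the members with the highest ppm in their subunit, Rpsa (0.08), Rpl13 (0.09), Rpl41 (0.09) and Rps20 (0.07) were not called.

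**Figure D2:**
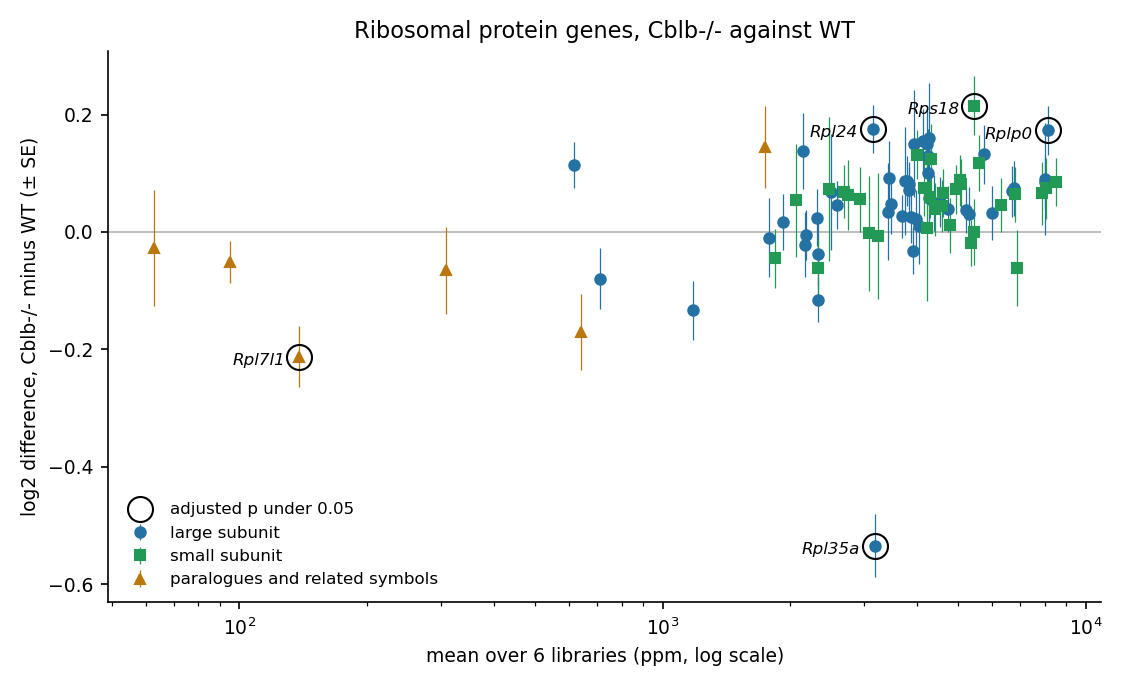
Log2 difference, Cblb-/- minus WT (y axis, ± SE), against the mean ppm of the 6 libraries (log x axis) for the 83 tested members, by subunit; rings mark adjusted p under 0.05. Rpl35a stands alone at -0.53 while the other members lie between -0.21 and 0.22.

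Members are spread over the genome, and both tested members on chromosome 16, which carries Cblb (chr16:52031225-52208048, mm10), were called. The start of Rpl24 lies 3.94 Mb from that of Cblb and the start of Rpl35a 18.97 Mb from it. Of all tested genes on chromosome 16, 29.5% were called, against 24.3% on the other chromosomes, where 3 of 81 members were called. Within 5 Mb of Cblb 9 of 17 genes were called, 10 of 25 between 5 and 10 Mb, 12 of 52 between 10 and 20 Mb, where Rpl35a lies, 12 of 28 between 20 and 30 Mb and 38 of 153 farther away. Rps18 and Rpl7l1 lie on chromosome 17, where 26.9% of genes were called, and Rplp0 lies on chromosome 5 (20.4%). The part of position in these results was not tested.

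The same comparison was made within the authors' deposited clusters 0 to 5, each with at least 50 cells in every library, to see whether members differed in some cell states only. Rpl35a was lower in Cblb-/- cells of all 6 clusters, and Rps18, Rpl24 and Rplp0 were called higher in 5 of the 6. In cluster 3 their log2 differences were 0.18, 0.16 and 0.14, with limma adjusted p-values of 0.103, 0.103 and 0.126. Each cluster had 83 tested members. In cluster 0, 5 members were called higher and 2 lower (background 9.06% and 12.8% of genes), and in cluster 1, 3 and 2 (9.22% and 9.62%). Cluster 2 had 12 and 5 (8.39% and 11.7%), cluster 3 had 0 and 1 (4.54% and 3.85%), cluster 4 had 7 and 3 (5.33% and 7.47%) and cluster 5 had 3 and 1 (4.9% and 4.68%). Single libraries set many of these calls: without library C, 3 members were called in cluster 2 and 1 in cluster 4, and without library F 25 in cluster 4. The clusters were made by the authors from the same cells, and cluster 6, with 18 Cblb-/- and 6 WT cells, was not tested.

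Rpl35a ranged from 2358 to 2781 ppm in Cblb-/- libraries over the 6 clusters and from 3464 to 4009 ppm in WT libraries, so no Cblb-/- value in any cluster reached a WT value in any other. Its log2 differences were -0.50, -0.54, -0.53, -0.55, -0.47 and -0.57 in clusters 0 to 5, with limma adjusted p-values of 0.000176 to 0.00205. It was called in each of the 6 under all 11 other settings run there, including without any 1 library.

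**Figure D3:**
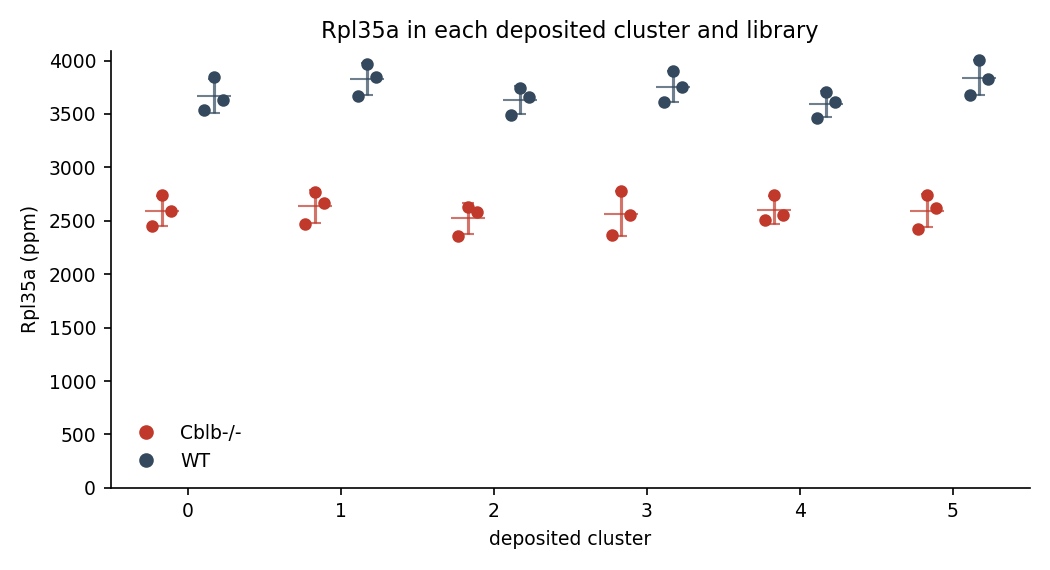
Rpl35a in ppm (y axis, from 0) in each deposited cluster (x axis); points are libraries and bars the mean ± SD of 3. In every cluster the Cblb-/- libraries (red, left) sit between 2358 and 2781 ppm and the WT libraries (blue, right) between 3464 and 4009 ppm.

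Cluster 2 gave the most calls, and its 12 higher members included Rpl17, Rpl3, Rps4x and Rpl36a. Rpl17 had 4630, 4309 and 4082 ppm in Cblb-/- cells of cluster 2, against 3799, 3648 and 3597 ppm in WT cells (log2 difference 0.24, SE 0.05, limma adjusted p = 0.0103). Among its 5 lower members, Rps27l, a p53-induced paralogue of Rps27, had 617, 616 and 626 ppm in Cblb-/- cells, against 651, 747 and 777 ppm in WT cells (log2 difference -0.22, adjusted p = 0.0292 in limma). Rps27l was also lower in cluster 4, with 490, 563 and 598 ppm in Cblb-/- cells, against 638, 714 and 726 ppm in WT cells (log2 difference -0.33, limma adjusted p = 0.0104). Rpl22l1, a paralogue of Rpl22, was called higher in cluster 4 alone, with 1958, 2077 and 1716 ppm in Cblb-/- cells and 1630, 1685 and 1610 ppm in WT cells (log2 difference 0.22, adjusted p = 0.0458 in limma). Rpl18 and Rps14 were called higher in clusters 0, 2 and 4.

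A call in one cluster and not in another is no difference between them, and that difference was tested directly. No member was called, by limma, for a Cblb-/- effect in clusters 1 to 5 that differed from its effect in cluster 0. None of the 83 had an unadjusted p under 0.05 in any of the 5 comparisons. With 3 libraries a group, small differences of effect can be missed. Among all genes 16.2%, 21.8%, 9.82%, 9.41% and 7.57% had such a p in clusters 1 to 5, and the background of calls was 2.02% in cluster 2 and 0.0% in the other 4.

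Levels also changed little from cluster to cluster. Averaged over libraries, a member's highest and lowest cluster differed by a median of 0.09 and at most 0.18 on the log2 scale. Rps19bp1, which binds Rps19, had the widest range (0.18) and was highest in cluster 2, and Rps6 (0.16) was highest in cluster 1 and lowest in cluster 4. The summed share was lowest in cluster 2 in 5 of 6 libraries and in cluster 3 in library F. In cluster 2 it was 32.4% ± 1.06 in Cblb-/- and 30.6% ± 0.413 in WT libraries, and in cluster 4 it was 33.4% ± 1.498 and 31.0% ± 0.711, and in these clusters the groups did not overlap. Clusters 2 and 4 also held the deepest cells, with medians of 41007.5 and 41712.5 raw UMIs against 36596 to 38262 in clusters 0, 1, 3 and 5. In cluster 2 the genotypes also differed in depth, with library medians of 37669 to 40920 raw UMIs in Cblb-/- cells and 42596 to 43894.5 in WT cells, which did not overlap. In cluster 4 they overlapped, at 39306 to 43459 and 40508.5 to 43755. The part of depth in these shares and calls was not tested. Clusters were made on the expression of the same cells, so these orders are a description.

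The ratio of large to small subunit counts was lowest in cluster 1 and highest in cluster 4 in all 6 libraries. It ran from 1.228 to 1.231 in Cblb-/- libraries in cluster 1, against 1.234 to 1.236 in WT libraries. In cluster 2 it was also lower in Cblb-/- libraries, at 1.237 to 1.240 against 1.243 to 1.253, and in cluster 5 it was higher, at 1.241 to 1.244 against 1.235 to 1.240. Groups did not overlap in these 3 clusters and overlapped in clusters 0, 3 and 4. The whole span is small, since the cluster means lie between 1.230 and 1.253.

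**Figure D4:**
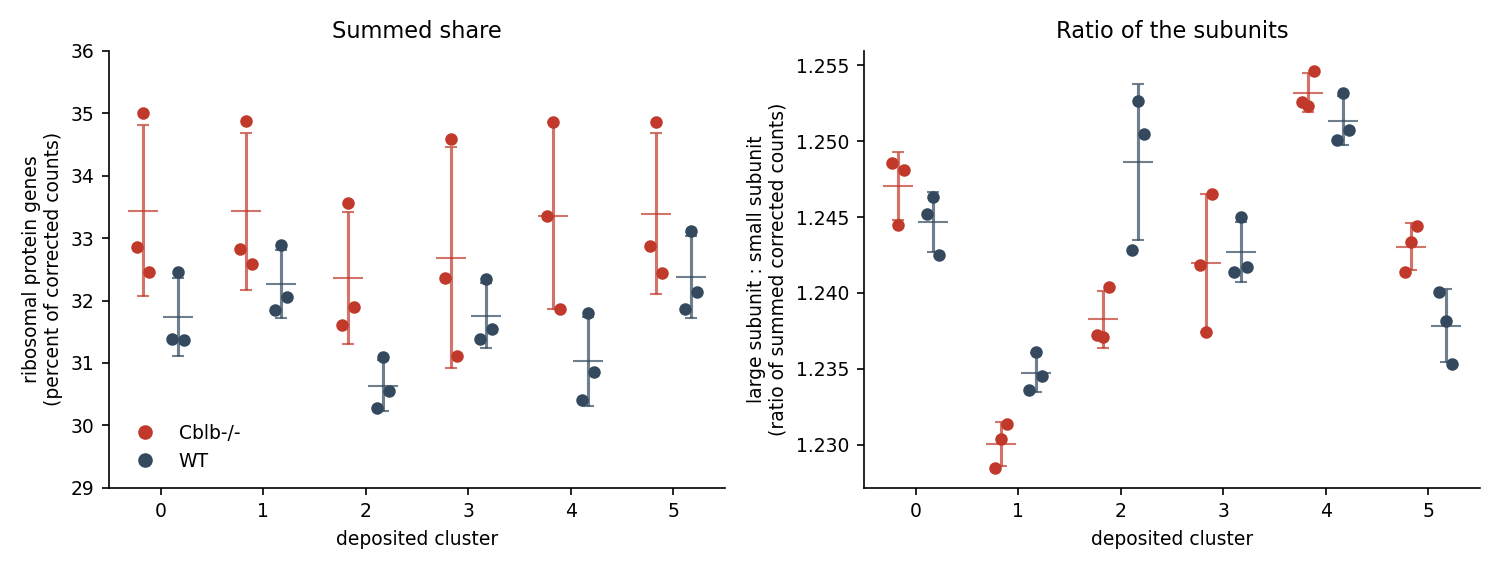
Summed share of ribosomal protein genes (left, percent of corrected counts) and ratio of large to small subunit counts (right) in each deposited cluster; points are libraries, bars the mean ± SD of 3, Cblb-/- red and WT blue, and the y axes do not start at 0. Cluster 2 has the lowest shares in most libraries, and the ratio is lowest in cluster 1 and highest in cluster 4.

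Paralogues were set against the genes they resemble, as a ratio of ppm within a library, which removes any scaling of the library. For Rps27l to Rps27 the ratio was 0.290, 0.254 and 0.319 in Cblb-/- libraries and 0.351, 0.315 and 0.339 in WT libraries, and the groups overlapped. Rpl22l1 to Rpl22 gave 0.937, 0.868 and 0.759 in Cblb-/- and 0.794, 0.760 and 0.722 in WT libraries, also with overlap. Rpl36al, which encodes nearly the same protein as Rpl36a, gave 0.126, 0.121 and 0.156 against 0.152, 0.156 and 0.153. Only Rpl7l1 to Rpl7, at 0.0342, 0.0326 and 0.0370 in Cblb-/- libraries and 0.0400, 0.0400 and 0.0424 in WT libraries, and Rps27rt to Rps27, at 0.0294, 0.0291 and 0.0297 against 0.0307, 0.0320 and 0.0307, had groups that did not overlap. Rps27rt is an expressed retrocopy of Rps27, near-identical to it, so reads of the pair can be shared between their counts.

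Of the remaining symbols, Rps27l (-0.17), Rpl36al (-0.07), Rps19bp1 (-0.05), Rps27rt (-0.03) and Rpl22l1 (0.15) were not called over all cells. Rpl39l, known for male germ cells in the mouse, had 1.29, 2.38 and 0.324 ppm in Cblb-/- libraries and 2.0, 0.165 and 1.22 ppm in WT libraries, and was too low to test. Its counts came from 185 cells, 54 of which had a corrected count of at least 10 and the highest of which had 25. The groups overlapped, and these cells were found in all of clusters 0 to 5. Rpl3l, the heart and skeletal muscle form of Rpl3, had summed corrected counts of 1, 1 and 3 in Cblb-/- and 3, 1 and 3 in WT libraries, at or under the limit of 3 counts that a count of 0 allows.

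The libraries differed among themselves in the shortest members more than in the long ones, irrespective of genotype. There were 9 subunit members with a coding length under 300 bases, a limit chosen after the values were seen. For all 9, library E was the highest of the 6 libraries and library A the lowest. Rpl41, with 75 coding bases, had 7292, 9196 and 8285 ppm in Cblb-/- libraries and 6993, 8333 and 7902 ppm in WT libraries. Rps29, with 168, had 3736, 4987 and 3966 ppm against 3600, 4556 and 4448 ppm. Rps28, with 207, had 2215, 2982 and 2418 ppm against 2067, 2627 and 2525 ppm. Rps27, at 252, had 1960, 2365 and 2002 ppm against 1782, 2186 and 2131 ppm, with overlapping groups as for every gene named in this comparison.

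The spread within a genotype had a median SD of 0.155 on the log2 scale for these 9 members, against 0.0521 for the 68 longer subunit members, and fell with coding length (Spearman -0.63 over 77 members, a description over members that share 6 libraries). None of the 9 was called, and their log2 differences ran from -0.0024 for Rps21 to 0.16 for Rpl39. The same order held when cells within 20% of the median raw depth were used, where E was highest and A lowest for all 9. E was highest for all 9 in each of clusters 0 to 5, and A lowest for 9 or 8 of them. E was also highest for 43 of the 68 longer members (63.2%), and for 8.78% of all tested genes. Over all 6 libraries, a ranking that also takes in the difference between the genotypes, other short genes seldom showed this order. Of 95 other genes of at least 100 ppm with coding lengths under 300 bases, E was highest for 5.26% and A lowest for 5.26%. Among 1208 longer genes the shares were 10.2% and 4.14%. For these other genes the spread within a genotype had a median SD of 0.0762 over the short and 0.0556 over the longer ones. Inside each set it had next to no relation to coding length (Spearman -0.06 over the short and 0.06 over the longer genes, a description). Split in the same way, the subunit members gave -0.32 over the 9 short and -0.47 over the 68 longer ones. Within a genotype the other short genes followed this order more often than the longer ones. E was the highest Cblb-/- library for 57.9% of the short genes and 29.5% of the longer ones. A was the lowest WT library for 56.8% and 17.5%. The part of library preparation in this pattern was not tested.

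**Figure D5:**
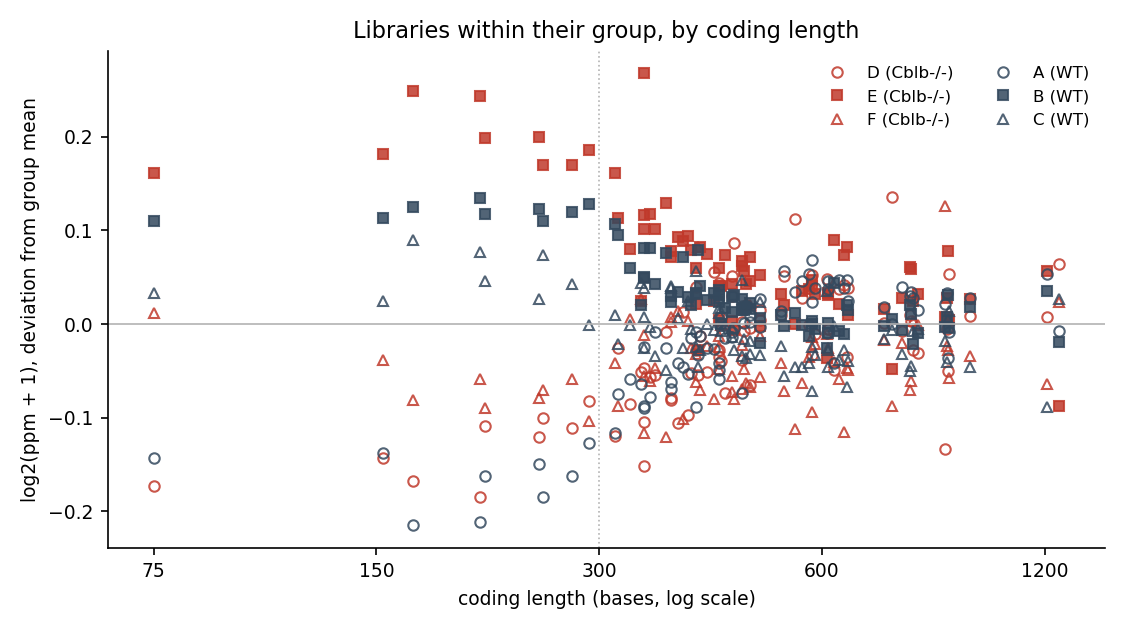
Deviation of each library from the mean of its genotype, as log2(ppm + 1) (y axis), against coding length in bases (log x axis) for the 77 subunit members; the dotted line marks 300 bases. Libraries E and B lie above and D and A below their group mean for the shortest genes, and the libraries draw together toward longer ones.

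Of proteins of the ribosome that the symbol rule did not take in, Fau and Rack1 are given, and Rack1 was chosen for naming after its values were seen. Fau, a ubiquitin-like fusion that yields Rps30, rose (4528, 4843 and 4387 ppm in Cblb-/- libraries, against 4051, 4204 and 4052 ppm in WT libraries; log2 difference 0.16, SE 0.05, limma adjusted p = 0.0455). Rack1, on the head of the small subunit, had 3255, 3219 and 3189 ppm in Cblb-/- libraries, against 3107, 3081 and 3149 ppm in WT libraries, and did not pass (limma adjusted p = 0.338).

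Other genes of the translation machinery were read as counts of calls. Of 24 other mRNAs known for a terminal oligopyrimidine tract, 4 rose and 1 fell, with a median log2 difference of 0.02 against -0.01 over all genes. All counts of calls for these lists stand against a background of 11.0% of all genes called higher and 13.4% called lower. The largest rise was that of Eef2, the translocase of elongation (log2 difference 0.18, limma adjusted p = 0.0307), and the fall that of Eef1d (-0.18, adjusted p = 0.0225 in limma). Among 39 initiation factors 3 rose and 4 fell (median -0.04). Eif3c rose to 651 ± 37.6 ppm in Cblb-/- libraries, against 579 ± 6.65 ppm in WT libraries (SD, n = 3 each), and Eif5a fell to 1864 ± 40.0 ppm, against 2195 ± 20.0 ppm. Of 15 elongation and termination factors, which share genes with the list of tract-bearing mRNAs, 2 rose and 1 fell (median -0.05). Gtpbp2, which rescues stalled ribosomes, rose by the most (0.41, limma adjusted p = 0.00599).

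Among 19 tested genes of mTORC1 and S6 kinase signalling only Rps6ka1 was called. It encodes a kinase activated by ERK, and had 53.6, 50.1 and 57.7 ppm in Cblb-/- libraries, against 36.7, 36.2 and 37.0 ppm in WT libraries (log2 difference 0.54, SE 0.06, limma adjusted p = 0.00132). The list also held Pdk1, which encodes a mitochondrial kinase rather than the mTOR pathway kinase Pdpk1. Against the same background of 11.0% higher and 13.4% lower, in the list of chaperones, import receptors and assembly factors of ribosomal proteins, 1 of 19 rose (Ipo7, log2 difference 0.17) and 5 fell (median -0.09). Tsr2, the chaperone of Rps26, fell to 25.5 ± 2.77 ppm in Cblb-/- libraries, against 33.1 ± 1.64 ppm in WT libraries. Of 15 genes of the RNA polymerase I machinery, which makes ribosomal RNA, 1 rose (Polr1c, 0.22) and 2 fell, Polr1e by the most (-0.30). In the list of p53 genes 1 of 11 rose and 1 fell: Cdkn1a, an inhibitor of the cell cycle, had 42.5, 33.9 and 56.7 ppm in Cblb-/- libraries, against 12.9, 19.0 and 22.7 ppm in WT libraries, and Trp53 fell slightly (-0.13).

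Mitochondrial ribosomal proteins, which serve the separate ribosome inside mitochondria, moved unlike the cytosolic set. Of 77 tested, 30 fell and 0 rose at adjusted p under 0.05 in limma (background 11.0% higher and 13.4% lower), with a median log2 difference of -0.13. Mrpl19 fell by the most, with 37.0, 55.4 and 40.2 ppm in Cblb-/- libraries, against 71.2, 70.7 and 71.0 ppm in WT libraries (log2 difference -0.69, SE 0.13, limma adjusted p = 0.00938). Their summed level was 8176 to 8594 ppm in Cblb-/- libraries, against 9168 to 9368 ppm in WT libraries, groups that did not overlap.

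Markers of other cell types were low but not equal between the genotypes. The 6 B cell markers summed to 5.24 to 9.04 ppm in Cblb-/- and 2.92 to 3.52 ppm in WT libraries, nearly all of it Cd79b, while Ms4a1 was at or near 0. The 6 myeloid markers in the table stood at 115 to 168 ppm against 84.5 to 88.3 ppm, nearly all of it Cst3, with Csf1r and Itgam near 0. The 2 CD8 T cell markers had 10.2 to 11.1 ppm against 5.68 to 7.20 ppm, nearly all of it Cd8b1, with Cd8a near 0. Dendritic cell (1.55 to 1.69 against 0.665 to 0.849 ppm) and NK cell markers (0.685 to 1.29 against 0.268 to 0.358 ppm) also had sums that did not overlap. Most of the dendritic cell sum was Zbtb46 and most of the NK cell sum Eomes, while Xcr1 overlapped between the genotypes and Klrb1c was near 0 in all libraries. Mast cell (0.340 to 4.28 against 0.0122 to 5.08 ppm), erythroid (0.121 to 0.658 against 0.134 to 0.216 ppm) and stromal markers (4.65 to 4.90 against 4.88 to 5.33 ppm) overlapped. Th9 culture markers summed to 1108 to 1643 ppm in Cblb-/- and 679 to 787 ppm in WT libraries. Il9 was a large part of the Cblb-/- sums (461 to 915 ppm, against 166 to 271 ppm in WT libraries). Of 7 tested, 6 were called higher and 0 lower, against 11.0% and 13.4% of all genes. Irf4 overlapped between the genotypes (203 to 215 against 204 to 224 ppm), and Spi1 was near 0.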

How the data were processed

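Single-cell transcriptomes of Th9 cultures were measured in 6 libraries, 3 Cblb-/- and 3 WT. Cell Ranger 3.0.2, Seurat 3.0.0 and genome build mm10 are named in the submitters' processing notes, without settings. The deposited expression values have the unit score: by the column names of the table they are counts that the authors had corrected with sctransform to a common depth, so that each cell sums to between 36012 and 39754. They were therefore not given to a count test. Per the file headers the authors' table gives each cell's raw UMI count (15006 to 193440 over the cells listed) and the percent of UMIs from mitochondrial genes. Genotype and library are columns of the table, and library letters come from its sequencing index names, which carry no replicate number.

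For each library corrected counts were summed over cells, or over the cells of a deposited cluster, and divided by the library's sum (ppm). Genes averaging 5 ppm or more were tested by limma 3.58.1 (R 4.3.3), two-sided, after log2(ppm + 1) was taken, with the prior variance following the mean level and Benjamini-Hochberg adjustment over all genes tested. Differences on this scale understate those of low genes. The test was checked on simulated data first. Libraries correlated at 0.993 to 0.9995 over genes and none was treated as a copy of another. Coordinates and coding lengths are from GENCODE M21. Near-identical copies are other annotated transcripts that match at least 91 bases of a member's last 200 at 98 percent identity or more (blastn 2.17.0), and 60 members have at least 1, so the authors' counting could split their reads. Promoters are RefSeq's.

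Members, gene lists and tests were chosen with earlier results of these data known. Named members are those called, the 5 largest differences of either sign in each subunit, all paralogues, the 3 highest in each subunit and a fixed set with separately known roles; for other lists, the called gene with the largest rise and fall. A few genes that these rules name are not reported here. No doublet caller was run, since raw counts per gene were not used here. Other scalings, pseudocounts (0.1 and 10 ppm), filters (none and 20 ppm), summaries over cells, cells within 20% of the median depth, equal cluster weights and leaving out each library were tried.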

Additional observations from a re-analysis of the deposited data

How the results depend on the processing

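No paired analysis was possible because the library columns carry no replicate number that ties a library to a numbered sample, so no replicate block could be fitted. Precision is limited by 3 libraries a group, and members with near-identical copies by how the authors assigned reads; corrected counts keep no depth per gene. Over all cells, Rpl35a stayed lower and called under all 19 other settings. The number of members called higher (3) was 1 with TMM scaling, 0 with median-of-ratios scaling, 5 with the library sum taken without ribosomal protein genes, 0 when scaled to those genes and 0 with no filter on low values. The number called lower (2) was 4 when scaled to ribosomal protein genes. Leaving out a library in turn gave 0 to 7 higher (7 without library F) and 1 to 4 lower (4 without library E). Within clusters, TMM scaling gave 4, 3 and 2 members called in clusters 0, 1 and 5 (7, 5 and 4 before), and scaling to ribosomal protein genes gave 3, 6, 4 and 1 in clusters 1, 2, 4 and 5 (5, 17, 10 and 4 before). Leaving out a library gave 1 to 11, 1 to 7, 3 to 13, 1 to 4, 1 to 25 and 1 to 3 members in clusters 0 to 5. The cause of these changes was not tested, beyond the smaller number of libraries in the last. The difference of the effect between clusters gave 0 members under pseudocounts of 0.1 and 10 ppm, a filter at 20 ppm and without any 1 library, by limma. Differences in summed share and in paralogue ratios moved by less than 1 SD under the settings that kept all libraries. Leaving out 1 of the 3 libraries of a group cannot move its mean by 1 SD of that group, so those settings could not decide this. The difference in summed share was 0.54 to 1.78 percentage points without 1 library.

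Several members with log2 differences near 0, none of them called, changed sign. Scaled to ribosomal protein genes, Rpl11 was at -0.036, Rpl5 at -0.011, Rplp1 at -0.026, Rplp2 at -0.047 (-0.0075 with median-of-ratios scaling) and Rps27 at -0.0037. With the library sum taken without ribosomal protein genes, Rpl22 was at 0.0065, Rps16 at 0.0091, Rps26 at 0.022 and Rps27rt at 0.000615. Rps26 was at 0.00171 in cells within 20% of the median depth and at 0.015 with equal cluster weights. Without 1 library, differences ran from -0.074 to 0.021 for Rpl10, -0.0063 to 0.057 for Rpl11, -0.068 to 0.031 for Rpl22, -0.032 to 0.13 for Rpl38, -0.000127 to 0.058 for Rplp1, -0.048 to 0.062 for Rplp2, -0.039 to 0.000455 for Rps16, -0.12 to 0.0054 for Rps2, -0.14 to 0.069 for Rps26, -0.038 to 0.11 for Rps27, -0.13 to 0.047 for Rps27rt and -0.0042 to 0.11 for Rps6.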

Other observations

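The table also holds columns named as ribosomal protein pseudogenes, which the symbol rule leaves out. Rpl10-ps3 had 47.5, 48.9 and 42.1 ppm in Cblb-/- libraries and 47.6, 49.6 and 46.4 ppm in WT libraries. Rps12-ps3 had 41.6, 47.4 and 39.0 ppm in Cblb-/- and 38.5, 42.7 and 42.4 ppm in WT libraries, with library E highest and A lowest, as for the shortest members. Rpl36a-ps1 (28.9, 32.1 and 30.3 ppm against 25.8, 30.5 and 28.1 ppm), Rpl27-ps3 (30.9, 29.3 and 26.8 ppm against 31.3, 31.1 and 29.8 ppm) and Rpl9-ps6 (16.7, 18.7 and 18.1 ppm against 15.9, 16.9 and 15.8 ppm) were likewise present. None was called between the genotypes, and the lowest limma adjusted p among those tested was 0.139, for Rpl9-ps6. Reads of the parent genes could be counted in these columns.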
